A study of Mus musculus with 18 samples.

Results

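The genes described here make serine and pass its carbon to folate, together with asparagine synthetase and the transcription factor Atf4. They number 10 of the 46603 genes in each library: Phgdh, Psat1, Psph, Shmt1, Shmt2, Mthfd2, Mthfd1l, Aldh1l2, Asns and Atf4. They were selected on a measured value, the higher Phgdh level of the tumoroids than of the organoids. The comparison of tumoroids with organoids is therefore given for these genes as a description, with no test. The comparisons within the organoids and within the tumoroids were tested. Some of these share libraries with the contrast of tumoroids and organoids, and earlier results of these data were known. Their tests are therefore not wholly independent of the choice. All 10 passed the filter on low counts in every comparison.

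RNA was sequenced from 18 mouse cultures, 10 of lung organoids before transplantation and 8 of tumoroids. Every donor carried at 1 Col1a1 locus a lox-stop-lox cassette, the CAG promoter and a human EGFR gene with the T790M and L858R mutations. Sorted cells were infected in vitro with Ad-GFP, the control virus, or with Ad-Cre to delete the stop cassette, and were grown in Matrigel on neonatal lung mesenchymal endothelial support cells. The organoids were tracheal cells sorted as NGFR-negative (club) or NGFR-positive (basal), and distal lung cells sorted as Sca1-negative (AT2) or Sca1-positive (bronchioalveolar stem cells, BASCs), each with 1 Ad-GFP and 1 Ad-Cre library. BASC cultures were further divided by their look under the microscope, which gave 1 alveolar and 1 bronchiolar Ad-Cre library beside the mixed pair. Ad-Cre organoids transplanted into the lungs of nude (Foxn1 Nu/Nu) mice gave the transplant tumoroids, 3 labelled AT2, 3 mixed BASC and 1 bronchiolar BASC, and 1 tumoroid came from an autochthonous tumour of a mouse that inhaled Ad-Cre. Donor ages are not given in the sources used here. The AT2 tumoroids carry an AT2 origin beside a sorting label of NGFR-negative cells and were placed by origin. AT2 tumoroids 2 and 3 share a title number, as do mixed BASC tumoroids 2 and 3 and the bronchiolar tumoroid. Tumoroids that share a number may come from the same mouse.

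Total expected counts lay between 27772660 and 97191624 in the organoids, and the tumoroids had 15327265 to 23355938, and the lowest expected count of any of the 10 genes in any library was 227. Organoid libraries were made by TruSeq and run on a HiSeq, and tumoroid libraries were made and run by BGI on a DNBSEQ, so that the sequencing platform and transplantation cannot be told apart. Markers of the labelled cells were present, with exceptions. The summed level of 8 AT2 markers was 77868 TPM or more in the 3 alveolar-labelled organoids and at most 3055 TPM in the 5 airway-labelled ones, and the bronchiolar tumoroid had 8228 TPM of AT2 and 13368 TPM of airway markers. In the trachea the NGFR-negative cultures held 4079 and 3724 TPM of 6 basal cell markers and the NGFR-positive cultures 3437 and 3037 TPM. The mixed BASC organoids had 805 (Ad-GFP) and 3581 TPM (Ad-Cre) of AT2 markers and 16477 and 14975 TPM of 7 airway markers, near the bronchiolar BASC organoid (3055 and 14485 TPM), whereas the mixed BASC tumoroids had 33960 to 69916 TPM of AT2 and 272 to 3483 TPM of airway markers. The labels do not say whether any cultures of a group were grown independently, so p values measure the spread between libraries.

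Serine is made from the glycolytic intermediate 3-phosphoglycerate by the successive action of Phgdh, Psat1 and Psph. The hydroxymethyltransferases, Shmt1 in the cytosol and Shmt2 in mitochondria, then convert serine to glycine and load a carbon unit onto tetrahydrofolate. In mitochondria Mthfd2 oxidises this unit and Mthfd1l releases it as formate, which serves the synthesis of nucleotides, whereas Aldh1l2 oxidises it to carbon dioxide. Atf4 is the transcription factor of the integrated stress response, is regulated to a large part through translation of its mRNA, and is known to activate many of these genes and Asns. Because these are bulk samples, fewer cells of a type and less RNA per cell cannot be told apart.

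The promoters were searched for the element through which Asns is known to answer Atf4, and for the CCAAT box and the E box CACGTG. Stretches below hold the first element or the CCAAT box, which was found in more members than the other elements searched. RefSeq promoters of GRCm38.p6, 250 bases before to 50 after a start, were found for 9 of the 10 genes; Aldh1l2 had none. The C/EBP-ATF response element core, TGATGNAA on either strand, was present in 1 of the 9, Asns, and in 3.97% of 32851 promoters. It lay 23 bases before the Asns start in chr6:7693214-7693243, minus strand, here with the element in capitals.
Asns: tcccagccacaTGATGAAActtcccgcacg
The CCAAT box, searched on both strands after the other values had been seen, was present in 6 of the 9 genes and in 37.41% of promoters, and the E box CACGTG was present in 0 of the 9 and in 7.15% of promoters. The 9 genes had 10 promoters, since Psat1 had another without the CCAAT box, so shares of genes and of promoters are not the same measure. The box nearest before the start is shown in capitals for the 4 genes with a box among those that were lower in alveolar organoids below, ATTGG being CCAAT on the other strand. They lie on the minus strand at chr3:98339976-98340004 (Phgdh), chr19:15925049-15925077 (Psat1), chr5:129787285-129787313 (Psph) and chr6:83317610-83317638 (Mthfd2).
Phgdh: aagcatttctgaCCAATcaaaaggagact
Psat1: tctgagcgagagCCAATcagtgagcggcc
Psph: tgccgcccgctgATTGGcttaatccaacg
Mthfd2: ccggctcaggggCCAATgggcgcgcggga
The other boxes were in Shmt1 and Atf4, and neither element was found in the windows of Shmt2 and Mthfd1l. A match of letters is a description and not a bound site.

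TPM, a share of a library's transcripts that is scaled for gene length, allows levels of different genes to be set side by side. Atf4 had the highest level of the 10 genes in both kinds of culture, with a median of 284.4 TPM over the organoids (226.36 to 322.99) and 293.34 TPM over the tumoroids (223.74 to 320.99). Aldh1l2, which oxidises formyl-tetrahydrofolate to carbon dioxide in mitochondria, had the lowest, with medians of 6.7 TPM (4.97 to 9.73) and 5.78 TPM (2.68 to 10.43). In the organoids Phgdh was the fifth in order with a median of 41.44 TPM (15.69 to 53.24), after Psat1 at 70.46, Asns at 58.74 and Shmt2 at 58.3 TPM. In the tumoroids it was the third, with a median of 91.78 TPM (46.22 to 165.11), after Psat1 at 109.84 TPM. The ranges of neighbours in both orders overlapped, with the exceptions of Atf4, whose lowest value lay above the highest of every other member, and of Aldh1l2, whose range lay below that of Mthfd1l in the organoids (4.97 to 9.73 against 10.95 to 16.54 TPM) and below that of Psph in the tumoroids (2.68 to 10.43 against 12.81 to 25.96 TPM).

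**Figure D1:**
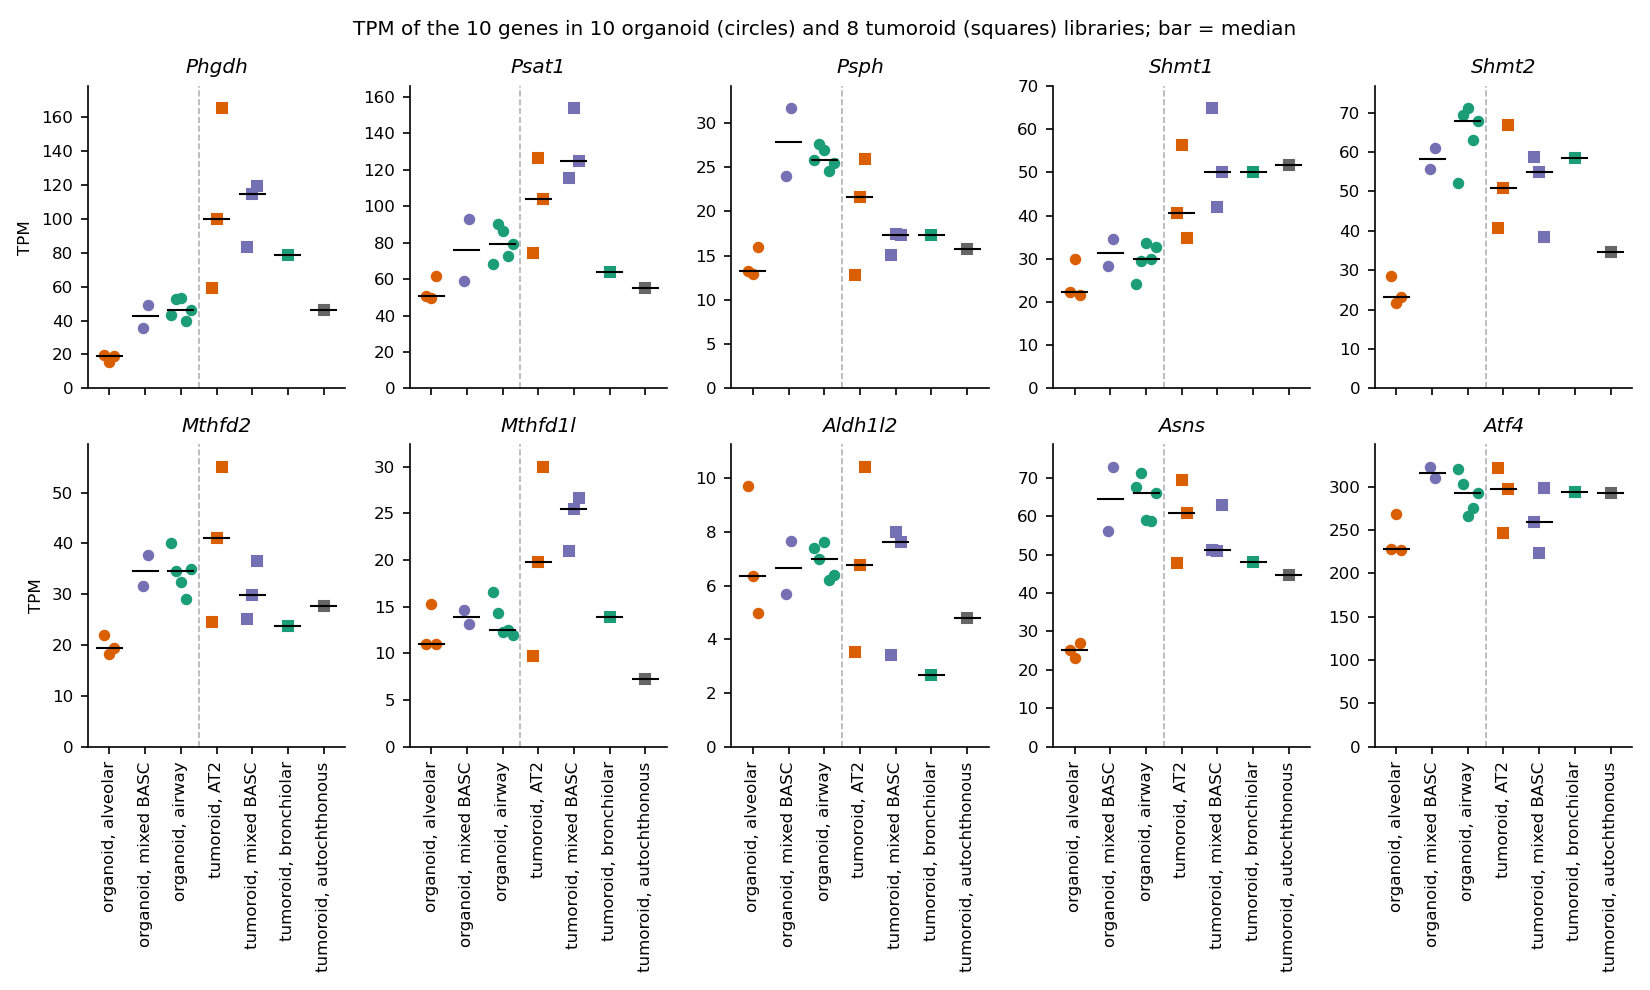
TPM of each of the 10 genes (y axis, linear from 0) in every library, by label (x axis), with organoids as circles, tumoroids as squares and the median of each label as a bar. Phgdh, Shmt2 and Asns of the 3 alveolar organoids lie below all other organoids, and Atf4 lies between 223.74 and 322.99 TPM throughout.

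Alveolar organoids had lower levels of the serine synthesis enzymes, of the mitochondrial folate enzymes Shmt2 and Mthfd2, and of Asns than airway organoids. The 3 alveolar-labelled libraries (AT2 Ad-GFP, AT2 Ad-Cre and alveolar BASC Ad-Cre) were tested against the 5 airway-labelled ones (4 tracheal and the bronchiolar BASC) with edgeR's quasi-likelihood test and Benjamini-Hochberg adjustment over 18362 genes. Of the 10 genes 6 passed at an adjusted p below 0.05, all lower in the alveolar organoids, against 58.4% of all genes called in either direction and 30.5% called lower, so a call is common here. The groups did not overlap in CPM, the counts scaled to library size by TMM, for 5 of the 10, against 54.5% of all genes. The median log2 fold change was -0.53 over the 10 genes and -0.06 over all genes.

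Phgdh, the dehydrogenase that opens serine synthesis, was at 15.7, 19.5 and 19.3 TPM in the AT2 Ad-GFP, AT2 Ad-Cre and alveolar BASC organoids. In the airway organoids it was at 53.2 and 52.4 TPM (NGFR-negative, Ad-GFP and Ad-Cre), 46.1 and 39.5 TPM (NGFR-positive, Ad-GFP and Ad-Cre) and 43.4 TPM (bronchiolar BASC). The groups did not overlap, the highest alveolar value being 19.5 TPM and the lowest airway value 39.5 TPM. Its log2 fold change was -1.22 (SE 0.14, edgeR adjusted p = 0.000181), from 48.1 ± 6.44 CPM (SD, n = 5) to 20.6 ± 2.77 CPM (SD, n = 3). The mixed BASC organoids, which were in neither group, had 49.4 (Ad-GFP) and 35.5 TPM (Ad-Cre), closer to the airway than to the alveolar libraries.

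Psph, the phosphatase of the last step, was at 12.9, 13.3 and 15.98 TPM in the alveolar organoids and between 24.5 and 27.6 TPM in the airway ones. The groups did not overlap, and its log2 fold change was -0.68 (SE 0.13, edgeR adjusted p = 0.00245). Psat1, the transaminase between them, was at 49.7, 50.7 and 61.6 TPM against 68.1 to 90.2 TPM. Its TPM did not overlap between the groups but its CPM did, and the log2 fold change of -0.39 (SE 0.14, edgeR adjusted p = 0.0420) passed in 8 of 16 settings of the analysis, with an adjusted p of up to 0.322.

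Shmt2 had the lowest fold change of the 10 genes. It was at 21.7, 28.5 and 23.3 TPM in the alveolar organoids and at 71.0, 69.4, 67.8, 63.1 and 52.2 TPM in the airway organoids, with no overlap. The log2 fold change was -1.25 (SE 0.14, edgeR adjusted p = 0.000136). Shmt1, its cytosolic counterpart, was at 30.0, 22.3 and 21.6 TPM against 24.2 to 33.7 TPM, and its log2 fold change of -0.23 (95% interval -0.55 to 0.09, edgeR adjusted p = 0.191) did not pass.

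The genes further along the mitochondrial path were divided. Mthfd2, which oxidises methylene-tetrahydrofolate, was at 18.2, 21.9 and 19.4 TPM in the alveolar and between 29.0 and 40.1 TPM in the airway organoids, and its log2 fold change was -0.67 (SE 0.13, edgeR adjusted p = 0.00299), with no overlap. Mthfd1l, which releases formate, was at 15.3, 11.04 and 10.95 TPM against 11.96 to 16.5 TPM, and Aldh1l2 was at 6.37, 9.73 and 4.97 TPM against 6.21 to 7.62 TPM. For both the groups overlapped, and the log2 fold changes of 0.04 (95% interval -0.30 to 0.38, edgeR adjusted p = 0.818) and 0.18 (95% interval -0.22 to 0.58, edgeR adjusted p = 0.402) did not pass.

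Asns, which makes asparagine from aspartate and glutamine and carries the element shown above, was at 23.2, 25.2 and 27.0 TPM in the alveolar organoids. In the airway organoids it was at 58.9, 71.1, 65.9, 58.6 and 67.5 TPM, so that every airway library was higher than every alveolar one. Its log2 fold change was -1.17 (SE 0.10, edgeR adjusted p = 5.31e-05). Atf4 itself was at 269, 228 and 226 TPM against 267 to 321 TPM, and its log2 fold change of -0.13 (95% interval -0.36 to 0.11, edgeR adjusted p = 0.318) did not pass, although it did with limma on log2(TPM + 1), at -0.28 (adjusted p = 0.0254).

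**Figure D2:**
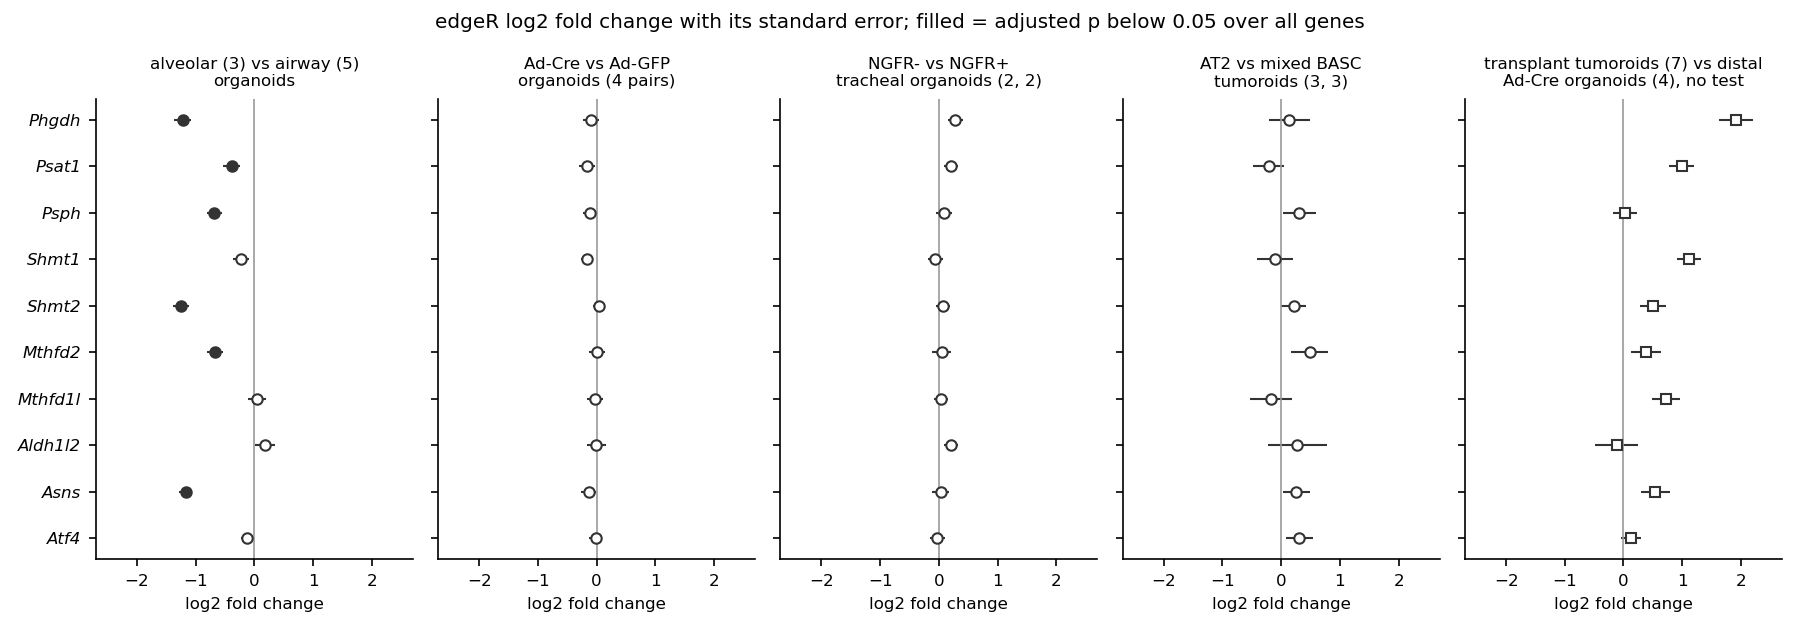
edgeR log2 fold change (x axis) of each gene (y axis) with its standard error in 5 comparisons, with filled points for an adjusted p below 0.05 over all genes and squares for the comparison that was not tested. Filled points stand only in the comparison of alveolar with airway organoids, for 6 genes, all below 0.

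Lists of related genes stood beside these members in the same comparison. Of 20 cytosolic aminoacyl-tRNA synthetases, which charge tRNAs and include known targets of Atf4, 17 were lower in alveolar organoids, 0 higher and 3 did not pass, with Cars (log2 fold change -1.67), Vars (-1.51) and Yars (-0.96) the lowest. Of 32 other targets of Atf4, 12 were lower, 5 higher and 15 did not pass. Chac1, which degrades glutathione, was lower (-2.12), as were the stress gene Nupr1 (-2.50) and the hormone Fgf21 (-3.19), the last at under 1 CPM in both groups (0.0859 and 0.808 CPM). Vldlr, a lipoprotein receptor (0.99), the amino acid transporter Slc38a2 (0.80) and the cytokine Gdf15 (0.96) were higher, so the targets did not move one way.

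Other genes of serine and folate metabolism were divided too. Of 36 tested, 15 were higher in alveolar organoids, 6 lower and 15 did not pass. Sardh, which breaks down sarcosine in mitochondria, was higher (1.89), as were Gnmt, which methylates glycine (2.71), and Ftcd, which takes carbon from histidine (3.52), the last at 0.965 against 0.0784 CPM. Ggh, which trims folate polyglutamates (-1.77), Atic, of purine synthesis (-0.76), and Cbs, which joins serine to homocysteine (-1.48), were lower. Upstream of Atf4, 5 of 11 genes were higher, among them the eIF2 kinases Eif2ak4 (0.89), Eif2ak3 (0.55) and Eif2ak1 (0.42). A further 4 were lower, among them the eIF2B subunits Eif2b3 (-1.08) and Eif2b2 (-1.02). Of 14 chaperones of the endoplasmic reticulum, which belong to the other branches of the unfolded protein response, 6 were higher and 1 lower.

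Markers of proliferation and of fibroblasts moved with the same groups. The summed level of 16 proliferation genes was 274 to 341 TPM in the alveolar and 450 to 559 TPM in the airway organoids, and 12 of the 16 were lower in the alveolar ones and 0 higher. The summed level of 12 fibroblast markers was 3604 to 5514 TPM against 1075 to 2221 TPM, and 11 of the 12 were higher in the alveolar organoids and 0 lower. Their part in the lower levels of Phgdh, Psph, Shmt2, Mthfd2 and Asns was not tested. Of the immune list, 6 markers summed to at most 6.92 TPM in any organoid, and of the endothelial list 8 markers summed to 15.84 to 16.97 TPM in the alveolar and 3.30 to 4.45 TPM in the airway organoids, with Emcn at 0 in all 3 alveolar libraries.

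The 3 alveolar libraries come from 2 sorted populations, since the AT2 pair shares a sort. In the airway group the NGFR-negative pair shares a sort, as does the NGFR-positive pair. The alveolar BASC library and the bronchiolar BASC library, in opposite groups, were both subcultured from BASC organoids. The test had no term for these shared sources. The AT2, alveolar BASC and bronchiolar BASC Ad-Cre libraries were also in the contrast through which the genes were selected. The test of Phgdh is therefore not independent of the selection. With the Ad-Cre organoids alone (2 against 3, an alternative chosen after the data were seen) 4 of the 10 genes passed, Phgdh, Shmt2, Mthfd2 and Asns. Psph then had a log2 fold change of -0.60 (edgeR adjusted p = 0.0746).

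Activation of EGFR in vitro was the question of the next comparison. In 4 populations an Ad-GFP and an Ad-Cre library came from the same sort, and the pairs were kept as a block. Of 19178 genes 0 were called (0%), with 396 at an unadjusted p below 0.05 and 5 called by DESeq2. Of the 10 genes 0 were called and 0 had an unadjusted p below 0.05, by edgeR, and DESeq2 called 0 of them. The groups overlapped for all 10, against 0.433% of all genes that did not overlap.

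Phgdh was at 53.2, 46.1, 15.7 and 49.4 TPM in the NGFR-negative, NGFR-positive, AT2 and mixed BASC organoids with Ad-GFP, and at 52.4, 39.5, 19.5 and 35.5 TPM with Ad-Cre. In TPM it was higher with Ad-Cre in 1 of 4 pairs, AT2. As a share of expected counts it was also higher in the NGFR-negative pair (1572 of 27772660 with Ad-GFP, 1977 of 34507648 with Ad-Cre). Its log2 fold change, which is taken from counts, was -0.10 (95% interval -0.42 to 0.23). In TPM Shmt1 was lower with Ad-Cre in 4 of 4 pairs. It was at 33.7, 32.7, 30.0 and 34.5 TPM with Ad-GFP and 29.5, 30.0, 22.3 and 28.3 TPM with Ad-Cre. As a share of expected counts Shmt1 was higher with Ad-Cre in the NGFR-negative pair (926 of 27772660 with Ad-GFP, 1230 of 34507648 with Ad-Cre). Its log2 fold change of -0.17 (95% interval -0.43 to 0.10, edgeR adjusted p = 0.996) did not pass.

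Over the other genes the log2 fold changes lay between those of Psat1, at -0.16 (95% interval -0.49 to 0.17), and Shmt2, at 0.03 (95% interval -0.22 to 0.29). Atf4 was at -0.02 (95% interval -0.29 to 0.26). Changes of a size within these intervals remain compatible with the 4 pairs. Whether the effect of Ad-Cre differed between the distal and the tracheal populations was tested with an interaction term. It called 0 of 19178 genes (0%) and 0 of the 10, with 890 genes and 0 of the 10 at an unadjusted p below 0.05, and DESeq2 called 145 genes and 0 of the 10.

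Of the 36 other genes of serine and folate metabolism 0 were called with Ad-Cre, and 0 were called of the 32 other targets of Atf4, the 20 synthetases, the 11 genes upstream of Atf4 and the 16 proliferation genes. Of the targets of Atf4 1 had an unadjusted p below 0.05 by edgeR, and 0 of the genes of the 4 other lists.

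Within the trachea the NGFR-negative and NGFR-positive organoids (2 against 2, with the virus as a covariate) differed in 50 of 17234 genes (0.29%) by edgeR, and DESeq2 called 101. Of the 10 genes 0 were called by either tool and 0 had an unadjusted p below 0.05 by edgeR. Phgdh, at 53.2 and 52.4 TPM in the NGFR-negative and 46.1 and 39.5 TPM in the NGFR-positive cultures, came nearest, with a log2 fold change of 0.28 (95% interval -0.00 to 0.56, edgeR adjusted p = 0.799). Psat1 was at 86.6 and 90.2 against 79.1 and 72.8 TPM, with a log2 fold change of 0.21 (95% interval -0.06 to 0.48). The other genes lay between -0.06 for Shmt1 and 0.20 for Aldh1l2.

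Among the tumoroids the origin of the cells was compared next. The 3 AT2 and the 3 mixed BASC transplant tumoroids differed by edgeR in 0 of 15470 genes (0%), with 144 at an unadjusted p below 0.05 and 7 called by DESeq2. Of the 10 genes 0 were called by either tool and 0 had an unadjusted p below 0.05 by edgeR. The groups overlapped for all 10, while 3.65% of all genes did not overlap.

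Phgdh was at 59.3, 100 and 165 TPM in the AT2 and at 83.5, 115 and 119 TPM in the mixed BASC tumoroids. The AT2 tumoroids held both the lowest and the highest value, and the log2 fold change of AT2 over mixed BASC was 0.13 (95% interval -0.71 to 0.98). Mthfd2 had the widest difference of the 10, at 24.6, 41.1 and 55.1 against 25.1, 29.9 and 36.4 TPM, with a log2 fold change of 0.48 (95% interval -0.27 to 1.23).

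Psat1 was at 74.2, 127 and 104 TPM in the AT2 and 115, 154 and 125 TPM in the mixed BASC tumoroids, with a log2 fold change of -0.21 (95% interval -0.86 to 0.43). Atf4 was at 321, 246 and 297 against 260, 224 and 298 TPM. Its log2 fold change of 0.31 (95% interval -0.23 to 0.85) did not pass either.

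AT2 tumoroid 3 stood apart among the tumoroids. It had the highest level of Phgdh (165 TPM), Psph (26.0), Shmt2 (66.8), Mthfd2 (55.1), Mthfd1l (30.0) and Aldh1l2 (10.4 TPM), and of the proliferation genes (1311 TPM) and fibroblast markers (5520 TPM). Its Shmt1 was the lowest, at 34.9 TPM. It was also the smallest library, with 15327265 expected counts. It had the lowest AT2 marker sum of the AT2 tumoroids (31163 TPM) and the highest endothelial marker sum of the tumoroids (42.9 TPM). Without it the log2 fold change of Phgdh between AT2 and mixed BASC tumoroids was -0.18, and that of Shmt1 turned from -0.10 to 0.13, neither of which passed.

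The bronchiolar BASC tumoroid is a single library, so its place among the other 7 tumoroids is given without a test. It may come from the same mouse as mixed BASC tumoroids 2 and 3, which share its title number. In log2 CPM it was outside their range for 1 of the 10 genes, Aldh1l2, against 34.4% of 12939 genes. Aldh1l2 was at 2.68 TPM there and between 3.41 and 10.4 TPM in the others, 1.00 below their mean in log2 CPM. Phgdh was at 78.8 TPM, inside the range of 46.2 to 165 TPM, and Atf4 was at 294 TPM, inside the range of 224 to 321 TPM. On the TPM scale, Mthfd2 (23.8 against 24.6 to 55.1 TPM) was also outside. The bronchiolar BASC organoid, by comparison, had higher TPM than the alveolar BASC organoid for all 10. Phgdh was at 43.4 against 19.3 and Asns at 67.5 against 27.0 TPM. For Psat1, at 68.1 against 61.6 TPM, the order turned in counts scaled by TMM.

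The contrast through which the genes were selected set the 7 transplant tumoroids against the 4 distal Ad-Cre organoids (AT2, mixed, alveolar and bronchiolar BASC). It is described, and no call is given for the 10 genes. By edgeR 3167 of 16139 genes (19.6%) were called, 10.8% of all genes as higher in tumoroids, and 15.6% did not overlap. Among the 10 genes the highest fold changes were those of Phgdh, by which the genes were chosen, Shmt1 and Psat1.

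Phgdh was at 19.5, 35.5, 19.3 and 43.4 TPM in the AT2, mixed, alveolar and bronchiolar BASC organoids and at 59.3 (lowest), 100 (median) and 165 TPM (highest) in the tumoroids, a log2 fold change of 1.91 (SE 0.29). Shmt1 was at 22.3, 28.3, 21.6 and 24.2 TPM and at 34.9, 50.02 and 64.8 TPM, a log2 fold change of 1.12 (SE 0.20). Psat1 was at 50.7, 59.2, 61.6 and 68.1 TPM and at 63.7, 115 and 154 TPM, a log2 fold change of 0.99 (SE 0.21). On the TPM scale Psat1 of the bronchiolar tumoroid, at 63.7 TPM, was below that of the bronchiolar organoid, and the groups overlapped, while in CPM they did not.

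The rest of the pathway was nearer to its level in the organoids. Mthfd1l had a log2 fold change of 0.73 (SE 0.24), at 10.9 to 16.5 TPM in the organoids and 9.75 to 30.0 TPM in the tumoroids. Asns, Shmt2 and Mthfd2 had log2 fold changes of 0.54 (SE 0.25), 0.50 (SE 0.22) and 0.38 (SE 0.26).

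Atf4 was at 228, 323, 226 and 321 TPM in the organoids and at 224, 294 and 321 TPM (lowest, median and highest) in the tumoroids, with a log2 fold change of 0.13 (SE 0.17). Psph, at 0.02 (SE 0.20), and Aldh1l2, at -0.11 (SE 0.36), were near 0. The members thus spread from -0.11 to 1.91, the highest being Phgdh, by which they were chosen. Their median, with Phgdh included, was 0.52 against -0.00 over all genes.

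Set against the Ad-Cre organoid of the same starting population, the tumoroids gave ratios that differed by population. Mean Phgdh of the tumoroids was 5.53 times the organoid in AT2, 2.98 times in mixed BASC and 1.82 times in bronchiolar BASC. The organoid libraries started from 19.5, 35.5 and 43.4 TPM, and the tumoroid means were 108, 106 and 78.8 TPM, so the AT2 organoid was the lowest of the organoids while the AT2 and mixed BASC tumoroid means lay close to each other. The ratios of Asns (2.36, 0.978 and 0.712), Psph (1.52, 0.692 and 0.672), Mthfd2 (1.84, 0.967 and 0.594) and Mthfd1l (1.80, 1.66 and 0.837) were in the same order. Those of Psat1 (2.01, 2.22 and 0.936), Shmt2 (1.85, 0.909 and 1.12), Aldh1l2 (0.711, 1.12 and 0.362) and Atf4 (1.27, 0.806 and 0.915) were in other orders. Shmt1 was higher in tumoroids by a similar factor in each population, 1.97, 1.85 and 2.08 times. All of these are ratios of TPM, which was computed with effective lengths that differ by platform. In CPM those of Psat1 and Atf4 in bronchiolar BASC and of Asns in mixed BASC were above 1. With 1 organoid library per population these ratios have no test, and the mixed BASC organoid and tumoroids differ in their AT2 and airway markers as given above.

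**Figure D3:**
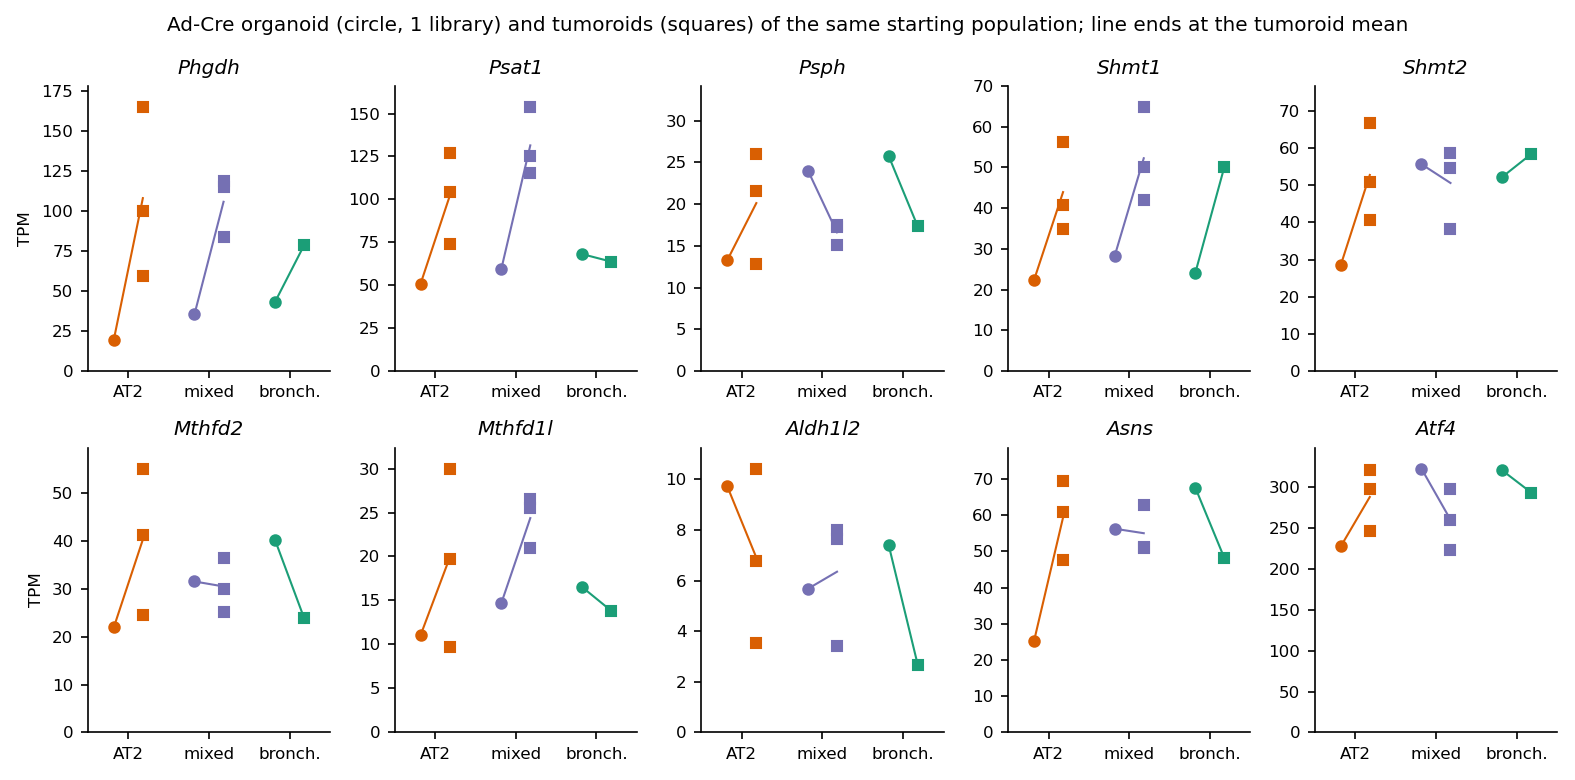
TPM of each of the 10 genes (y axis, linear from 0) in the Ad-Cre organoid (circle, 1 library) and the tumoroids (squares) of the AT2, mixed BASC and bronchiolar BASC populations (x axis), with a line from the organoid to the tumoroid mean. Phgdh lines start at 19.5, 35.5 and 43.4 TPM and end at 108, 106 and 78.8 TPM, and those of Shmt1 end at 43.9, 52.3 and 50.2 TPM.

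The autochthonous tumoroid, which had no transplant but the same platform as the other tumoroids, had the lowest levels of several members among the 8. Its Phgdh was at 46.2 TPM, within the range of the airway organoids and above the 3 alveolar organoids (15.7 to 19.5 TPM). Its marker sums were 138913 TPM for AT2 and 486 TPM for airway markers. Its Psat1 (54.8 TPM), Shmt2 (34.5), Mthfd1l (7.25) and Asns (44.6 TPM) were also the lowest, while its Shmt1 (51.6 TPM) was the third highest and above every organoid.

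Of 34 other genes of serine and folate metabolism in the contrast of tumoroids with organoids, 4 were higher in tumoroids, 1 lower and 29 did not pass. Tyms, the thymidylate synthase, was higher (log2 fold change 1.87), as was the folate carrier Slc19a1 (0.64), and Mat2a, which makes S-adenosylmethionine, was lower (-0.81). Of 32 other targets of Atf4, 3 were higher, the mitochondrial protease Lonp1 (1.00), Pck2 (0.98) and Got1 (0.87), 0 were lower and 29 did not pass. Of 20 synthetases 5 were higher and 0 lower, and of 11 genes upstream of Atf4 3 were higher, the eIF2B subunits Eif2b1, Eif2b4 and Eif2b5, and 0 lower.

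All 16 proliferation genes were higher in tumoroids, led by Aurkb (1.98), Rrm2 (1.96) and Mcm5 (1.93), and their summed level was 673 to 1311 TPM in the transplant tumoroids and 274 to 495 TPM in the distal Ad-Cre organoids. Of 12 fibroblast markers 3 were lower in tumoroids and 0 higher. The part of these and of the platform in the levels of Phgdh, Psat1 and Shmt1 was not tested.

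**Figure D4:**
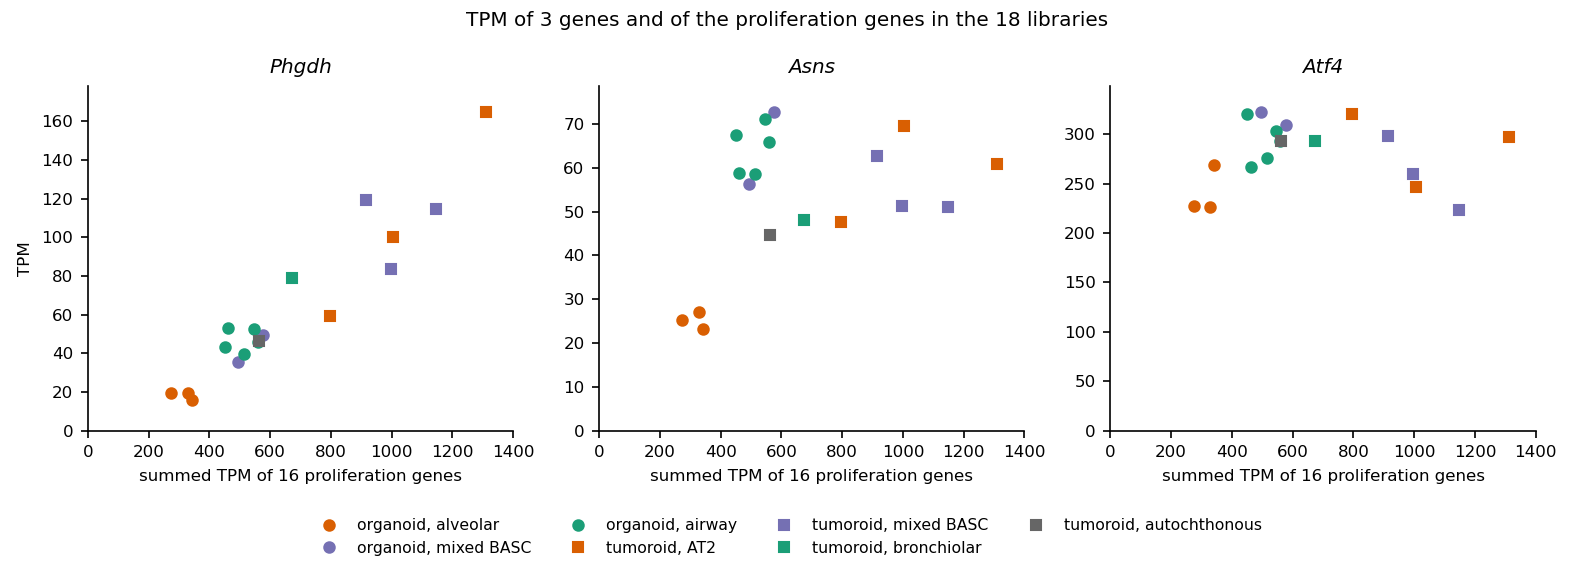
TPM of Phgdh, Asns and Atf4 (y axes, linear from 0) against the summed TPM of 16 proliferation genes (x axis) in the 18 libraries, with organoids as circles, tumoroids as squares and colours for the labels. The 3 alveolar organoids are the lowest on the x axis and in Phgdh and Asns, AT2 tumoroid 3 is the highest on the x axis and in Phgdh, and the alveolar organoids overlap the others in Atf4.

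Phgdh and the summed proliferation genes shared some of their order. Among the organoids the 3 alveolar libraries were the lowest for both, but the highest Phgdh (53.2 TPM, NGFR-negative Ad-GFP) and the highest proliferation sum (577 TPM, mixed BASC Ad-GFP) were in different libraries. Among the tumoroids the autochthonous one was the lowest for both (46.2 TPM of Phgdh, 563 TPM of the proliferation genes) and AT2 tumoroid 3 the highest (165 and 1311 TPM). Between these the orders differed, since the mixed BASC tumoroid 3 had the second highest Phgdh (119 TPM) and the fifth highest proliferation sum (914 TPM).

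The genes whose pattern was most like that of Phgdh were found by Pearson's r on log2(TPM + 1) over the 18 libraries, each platform centred, among 10448 genes. This is a description over libraries that share sorts, lineage and depth. Rbm8a (0.96), Sept9 (0.95), Alyref (0.94), Zbtb12 (0.94) and U2surp (0.94) had the highest values. Of the members, Psph (0.90) was the 95th in order, Asns (0.86) the 246th, Mthfd2 (0.86) the 252nd, Shmt2 (0.86) the 273rd and Psat1 (0.79) the 828th. Atf4 (0.30) and Shmt1 (0.16) were far down the order. Within the 10 organoids the value was 0.97 for Asns, Shmt2 and Psph, and within the 8 tumoroids Mthfd1l had 0.96, against 0.20 within the organoids.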

How the data were processed

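The submitters' processing notes name Trimmomatic 0.39, STAR 2.6.1d and RSEM 1.3.2 and the build GRCm38. The authors deposited, for each gene and library, RSEM's expected count, not normalized between libraries, and its TPM. Of 46603 genes per file 46091 were matched to GENCODE vM21 and 512 were not. Transgene expression was not analysed here. Expected counts were rounded to whole numbers, filtered with filterByExpr, scaled with TMM and tested in R 4.3.3 with edgeR 4.0.16 (quasi-likelihood test). A gene was called at a Benjamini-Hochberg adjusted p below 0.05 over all genes tested, and every adjusted p is edgeR's unless limma or DESeq2 is named. Standard errors were taken from the fold change and its F value. TPM is given per library, and correlations used log2(TPM + 1). Member genes are described in every comparison, and of each list the up to 3 genes per direction with the largest change among those called, except for an item that is not reported here. The members and lists were chosen with earlier results of these data known. The median of gene length minus effective length was 62.4 bases in organoids and 48.9 in tumoroids, so the effective lengths behind the deposited TPM differ by platform. The part of this in differences between TPM and CPM was not tested. In the 4 Ad-Cre and Ad-GFP pairs, deviations from the virus means correlated at 0.632, 0.776, 0.935 and 0.293, and the pairs come from 1 sort each, per the study's methods. The steps were tested on simulated data. Alternatives were DESeq2 1.42.0, its size factors in edgeR, no filter, limma 3.58.1 on log2(TPM + 1), each library left out, and other groupings. The lowest expected count of a member, 227, sets the counting precision.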

Additional observations from a re-analysis of the deposited data

How the results depend on the processing

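The 5 genes lower in alveolar organoids other than Psat1 kept their direction in all 16 settings, and all passed in each but for Psph with the Ad-Cre organoids alone. Between 5 and 7 of the 10 genes passed in the other settings of that comparison. The cause of these shifts was not tested. Genes called numbered 5374 with the Ad-Cre organoids alone, which leaves fewer samples. DESeq2 called 5 genes with Ad-Cre, 7 between the tumoroid groups and 101 between the tracheal sorts, where no filter gave 371 and limma 1. For the interaction DESeq2 called 145 genes and no filter 2, and leaving out libraries gave 0 to 1791, with 1776 and 1791 without an AT2 library and 714 and 473 without a mixed BASC one, and 0 of the 10 genes each time. In the contrast of tumoroids with organoids, leaving out libraries gave 1973 to 3716 genes, the lowest without the bronchiolar organoid, and the replicate block by population gave 1302. The bronchiolar tumoroid was outside the range for 2 genes in TPM and for 2 without the autochthonous tumoroid. With no replicate block in the Ad-Cre comparison 0 of the 10 genes were called, as with the block. Between the tracheal sorts no library could be left out, since no residual degrees of freedom remained.

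Directions turned only for differences that were not called. With Ad-Cre, Mthfd2 was at -0.042 with limma and -0.021 with no replicate block, Aldh1l2 at 0.0085 with no filter, 0.0060 with limma and 0.034 with no replicate block, and Shmt2 at -0.019 with no replicate block. Leaving out libraries gave Phgdh -0.20 to 0.021, Shmt2 -0.058 to 0.10, Mthfd2 -0.11 to 0.12, Mthfd1l -0.10 to 0.15, Aldh1l2 -0.18 to 0.12 and Atf4 -0.11 to 0.084. With limma, Mthfd1l was at -0.12 and Aldh1l2 at -0.022 between alveolar and airway organoids, Shmt1 at 0.011 and Atf4 at 2.26e-05 between tracheal sorts, and Phgdh at -0.073 between AT2 and mixed BASC tumoroids. With the Ad-Cre organoids alone Mthfd1l was at -0.21. Leaving out libraries gave Mthfd1l -0.13 to 0.14 and Aldh1l2 -0.078 to 0.34 between alveolar and airway organoids, and Phgdh -0.18 to 0.39, Shmt1 -0.35 to 0.13, Mthfd1l -0.47 to 0.12 and Aldh1l2 -0.046 to 0.59 between AT2 and mixed BASC tumoroids.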
